A study of Homo sapiens with 15 samples.

Results

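The genes described here were those whose platform symbol starts with ATG plus a digit, VPS plus a digit, ATP6V, ATP6AP, LAMP, LAMTOR, CTS plus a single letter, GABARAP, MAP1LC3 or WIPI, each represented by the brightest of its array rows. The rule used symbols and not measured differences. It found 80 of the 14884 symbols named on the array, in 85 rows, and 78 of the 80 passed the filter on low values, against 11804 of all symbols. The pseudogenes CTSL3P, between 3.10 and 4.37, and CTSLP8, between 2.28 and 3.56 log2 units over the 15 arrays, did not.

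Expression was measured on Affymetrix whole-transcript arrays of Caco-2, a single human colon carcinoma line that takes on traits of small intestinal enterocytes when left confluent. The LPS+RSV group (5 arrays) received 50 µM trans-resveratrol, a plant polyphenol dissolved in ethanol, 1 h before lipopolysaccharide (LPS) from E. coli K12 at 1 µg/mL for 48 h. The LPS group (5 arrays) received that endotoxin alone, and the control group (5 arrays) was untreated. All cells were used 15 to 19 days after seeding, and 300 ng of RNA went into each labelling reaction. The labels mention no added immune or stromal cells. The labels do not say whether the LPS group or the controls received ethanol, nor that replicates came from separate cultures, and the p-values therefore weigh a spread between arrays that may be technical. LPS+RSV was set against LPS to ask what resveratrol pretreatment changed under endotoxin, and both groups were set against control. Any pair of these comparisons shares the arrays of 1 group.

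Autophagy wraps cytoplasm in a double membrane and delivers it to lysosomes, acid compartments full of hydrolases. ATG proteins start and extend that membrane and attach proteins of the ATG8 family (LC3 and GABARAP) to its lipid. Cathepsins are the proteases of the lysosome, LAMP proteins coat its membrane, Ragulator (LAMTOR) anchors the nutrient sensor mTORC1 to it, and VPS proteins sort, tether and fuse the endosomes that feed it. Many lysosomal genes carry the E-box CACGTG near their start, the core of the element bound by TFEB and its relatives, and enterocytes use the pathway to digest absorbed material and to handle bacteria.

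The symbols did not cover the pathway evenly. They fell into 6 genes of initiation and phagophore growth, 7 of ATG8 conjugation, 7 of the ATG8 family, 3 LAMP genes, 2 Ragulator subunits, 15 cathepsins, 7 tether subunits, 9 ESCRT genes, 6 retromer and retriever subunits, 5 GARP and EARP subunits, 4 VPS13 lipid transfer proteins, 3 other VPS genes, 3 antisense RNAs and the pseudogene CTSLP2 among the 78 tested. No proton pump subunit, ATP6AP or WIPI symbol was named here, so these are not analysed here, and the single ATP6V symbol was the antisense RNA ATP6V0E2-AS1. Membership by symbol also took in VPS72, a subunit of chromatin-remodelling complexes. MAP1LC3B2 is a near-identical copy of MAP1LC3B, and CTSLP2 resembles CTSL, so their values are uncertain. Of the 24 members to be described in any case, 17 were tested.

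The line carried its label's markers. Of 14 intestinal epithelial markers 10 were named here and all were tested, with EPCAM at 11.89, sucrase-isomaltase (SI) at 12.04, villin (VIL1) at 10.95 and DPP4 at 10.58 the brightest and KRT8 at 6.90, KRT20 at 6.07 and CDX1 at 6.03 the dimmest, and the mean of the 10 lay between 8.76 and 9.28 in LPS+RSV arrays, between 8.81 and 9.34 in LPS arrays and between 8.81 and 9.14 in control arrays. Of 7 fibroblast markers 2 were named, DCN below the filter and LUM at 4.88, and of 7 immune markers 3, LYZ at 6.33, CSF1R at 6.54 and CD68, itself a lysosomal membrane protein, at 11.55. The mean of the 3 immune markers lay between 7.95 and 8.21 in LPS+RSV arrays, between 8.04 and 8.36 in LPS arrays and between 8.02 and 8.24 in control arrays. 1 array differed from the rest: LPS+RSV replicate 1 correlated with the others at 0.946 on average over the tested genes, where each other array lay at 0.973 or above. It was the highest array of its group for 36 of the 78 members (38.2% of all genes) and the lowest for 26 (26.4% of all genes). LPS+RSV replicate 2 was the lowest for 29 (22.2% of all genes). Values that move by more than 1.5 times without replicate 1 are also given without it. In RNA from a whole culture, fewer cells of a type and less RNA per cell cannot be told apart.

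Promoter sequences are shown for the members that moved together across arrays (described further below) and whose promoter holds the E-box. RefSeq promoters (GRCh38.p14, 250 bases before to 50 after the start) were matched to 59 of the 80 members. Each window runs 5′ to 3′ on the gene's strand, with CACGTG in capitals and 15 bases on each side. The CTSA window, at chr20:45891295-45891330, the LAMP1 window, at chr13:113297196-113297231, and the VPS11 window, at chr11:119067769-119067804, hold the longer palindrome TCACGTGA, on the plus strand. The CTSD window, at chr11:1763954-1763989, and the ATG14 window, at chr14:55411831-55411866, are on the minus strand.
CTSA: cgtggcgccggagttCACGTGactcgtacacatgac
LAMP1: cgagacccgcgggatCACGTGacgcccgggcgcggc
VPS11: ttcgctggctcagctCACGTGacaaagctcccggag
CTSD: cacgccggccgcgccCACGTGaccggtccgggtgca
ATG14: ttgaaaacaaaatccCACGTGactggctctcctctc
CACGTG is its own reverse complement, so both strands are searched at once. It stood in 11 of the 59 matched promoters (18.6%) and in 7.43% of all 27305 RefSeq promoters. TCACGTGA, which contains it, stood in 4 of 59 (6.78%) and in 1.04% of all. A still longer palindrome, TCACGTGA with a base added on each side, was also searched. That one stood in 0 of 59 and in 0.381% of all, a share too low for its absence from 59 promoters to tell much. A match describes letters in the window and shows no binding.

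The array values show at once how small the differences were.

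**Figure D1:**
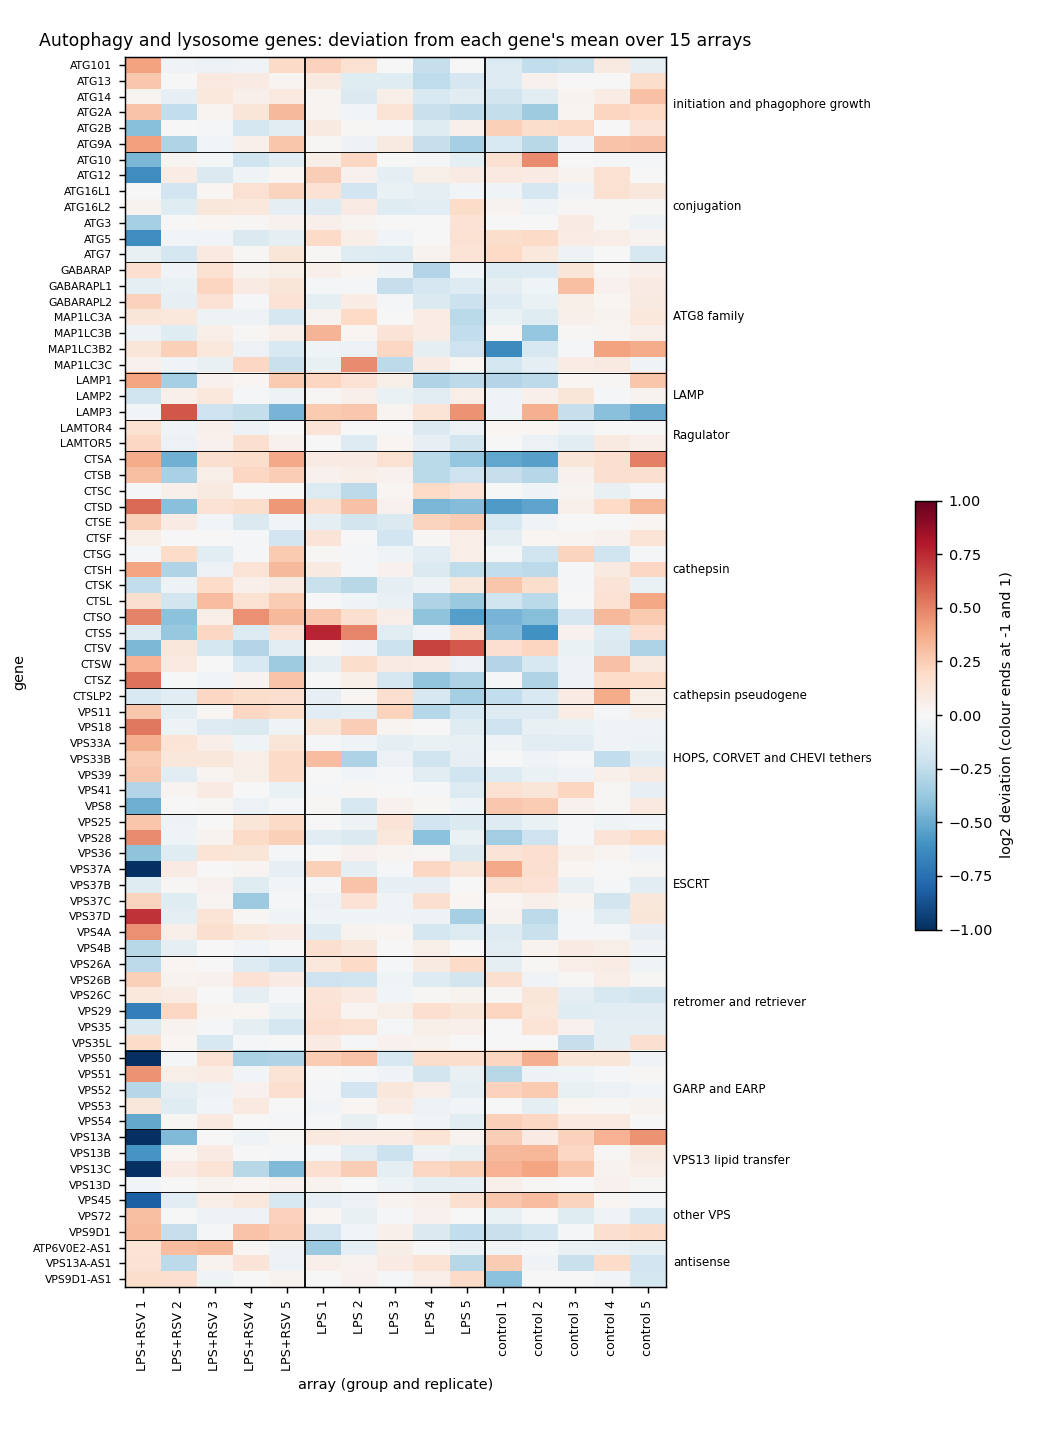
Deviation of each of the 78 tested genes from its own mean over the 15 arrays, on the log2 scale (colour, ending at -1 and 1), with arrays in columns (LPS+RSV, LPS and control, replicates 1 to 5) and genes in rows by role. LPS+RSV replicate 1 holds the deepest colours below the mean, and CTSA, CTSD and LAMP1 are low together in LPS+RSV replicate 2, LPS replicates 4 and 5 and control replicates 1 and 2.

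In LPS+RSV against LPS, no autophagy or lysosome gene passed the test. Retromer's cargo-binding subunit VPS26B had the lowest p, 1.20-fold higher, and its paralogue VPS26A was lower by 0.22 on the log2 scale. Most cathepsins were slightly higher (11 of 15), or 6 of 15 with a cell cycle score described below as a covariate, and the lipid transfer proteins VPS13A and VPS13C and the tether subunit VPS50 were lower, by amounts that depended on LPS+RSV replicate 1. Of the 78, 43 were higher, against 52.1% of all 11804 genes, and 35 lower, and the median log2 change was 0.02, against 0.01 over all genes. By limma with Benjamini-Hochberg adjustment 0 of 78 were called at an adjusted p under 0.05, against 0.0424% of all genes, and the lowest adjusted p was 0.102. At an unadjusted p under 0.05, 13 members were higher, against 8.08% of all genes in that direction, and 8 were lower, against 10.5%. With quantile normalization repeated over the tested genes, that split was 17 higher and 5 lower.

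VPS26B is the subunit of retromer that helps recognise cargo for retrieval from endosomes. It measured 7.48, 7.28, 7.29, 7.39 and 7.33 in the LPS+RSV arrays and 7.03, 7.04, 7.20, 7.11 and 7.06 in the LPS arrays. Every LPS+RSV array lay above every LPS array, and the control arrays, at 7.41, 7.21, 7.26, 7.31 and 7.26, lay with the LPS+RSV arrays. The log2 change was 0.26 ± 0.06 (SE, limma) with an adjusted p of 0.102, and 0.23 without LPS+RSV replicate 1. VPS26A measured 9.77, 10.05, 10.03, 9.90 and 9.83 in LPS+RSV arrays and 10.14, 10.22, 10.01, 10.12 and 10.22 in LPS arrays, so that the groups overlapped through LPS replicate 3 alone. Its log2 change was -0.22 ± 0.07 (SE; limma's adjusted p = 0.153). VPS35, the core scaffold of retromer, averaged 10.54 ± 0.09 in LPS+RSV cells and 10.70 ± 0.08 in LPS cells (SD, n = 5 each), a change of -0.16 with a limma adjusted p of 0.216. Of the 6 retromer and retriever subunits 5 were lower and VPS26B was the sole higher one.

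VPS4A and VPS4B are paralogous ATPases that take ESCRT-III filaments apart. VPS4A measured 8.20, 7.80, 7.90, 7.84 and 7.82 in LPS+RSV arrays and 7.61, 7.77, 7.76, 7.56 and 7.61 in LPS arrays. The groups did not overlap, although the lowest LPS+RSV and the highest LPS array were close, and replicate 1 lay well above the other 4 of its group. The log2 change was 0.25 ± 0.08 (SE; limma's adjusted p = 0.161), and 0.18 without that array. VPS4B lay the other way, at 8.70 ± 0.12 in LPS+RSV cells and 8.85 ± 0.07 in LPS cells (SD, n = 5 each), a change of -0.15 that was -0.10 without LPS+RSV replicate 1. Of the 9 ESCRT genes 4 were higher and 5 lower, turning to 5 higher and 4 lower without that array. VPS28 of ESCRT-I was 0.30 and VPS25 of ESCRT-II 0.16 higher.

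ATG5, which is joined to ATG12 to form the enzyme that lipidates the ATG8 family, measured 7.87, 8.46, 8.46, 8.34 and 8.40 in LPS+RSV arrays and 8.68, 8.55, 8.46, 8.49 and 8.65 in LPS arrays. The groups did not overlap, but the highest LPS+RSV and the lowest LPS array were equal to 2 decimals. The log2 change was -0.26 ± 0.10 (SE; limma's adjusted p = 0.190), and -0.15 without LPS+RSV replicate 1. ATG12 differed by -0.21 ± 0.11, or -0.09 without that array, ATG16L1 by 0.09 ± 0.09 and the E1-like enzyme ATG7 by 0.01 ± 0.08 (SE), none with a limma adjusted p under 0.308. Of the initiation genes, ATG13, a scaffold of the ULK kinase complex, averaged 8.16 ± 0.11 in LPS+RSV cells and 7.95 ± 0.13 in LPS cells (SD, n = 5 each), a change of 0.21.

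The ATG8 family itself was close to level. GABARAP averaged 10.75 ± 0.09 in LPS+RSV cells and 10.61 ± 0.14 in LPS cells, GABARAPL1 7.69 ± 0.13 and 7.52 ± 0.10, and GABARAPL2 9.19 ± 0.13 and 9.03 ± 0.11 in the same order (SD, n = 5 each). The 3 GABARAP genes were thus 0.14 to 0.16 higher, and 0.04, 0.10 and 0.04 higher with the cell cycle score as a covariate. MAP1LC3A differed by -0.02 and MAP1LC3B by -0.07, and with that covariate by -0.07 ± 0.10 and -0.21 ± 0.10 (SE). Without the covariate, the limma adjusted p-values of these genes ran from 0.283 for GABARAPL2 to 0.941 for MAP1LC3A, which leaves differences of this size neither shown nor excluded.

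Cathepsin Z, a carboxypeptidase, measured 8.80, 8.25, 8.23, 8.29 and 8.55 in LPS+RSV arrays and 8.26, 8.31, 8.09, 7.86 and 7.95 in LPS arrays. The groups overlapped through LPS replicates 1 and 2, and the log2 change was 0.33 ± 0.13 (SE; limma's adjusted p = 0.194). CTSL, a cysteine endopeptidase, averaged 8.67 ± 0.19 in LPS+RSV cells and 8.38 ± 0.17 in LPS cells (SD, n = 5 each), a change of 0.29. CTSV, its closest relative, measured 7.73, 8.30, 8.01, 7.88 and 8.07 in LPS+RSV arrays and 8.20, 8.14, 7.97, 8.86 and 8.79 in LPS arrays. The groups overlapped, and the high LPS values were those of replicates 4 and 5, the arrays with the highest cell cycle score. The log2 change was -0.40 ± 0.17 (SE; limma's adjusted p = 0.231), and -0.06 ± 0.12 with that score as a covariate. CTSA was 0.19 ± 0.20 and CTSD 0.26 ± 0.21 higher, and LAMP1 0.11 ± 0.14 higher (SE), differences hardly larger than their SE. Without LPS+RSV replicate 1, CTSD was 0.16 and LAMP1 0.03 higher. LAMP2 differed by -0.01 ± 0.07, and LAMTOR5 of Ragulator was 0.15 ± 0.07 higher (SE).

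**Figure D2:**
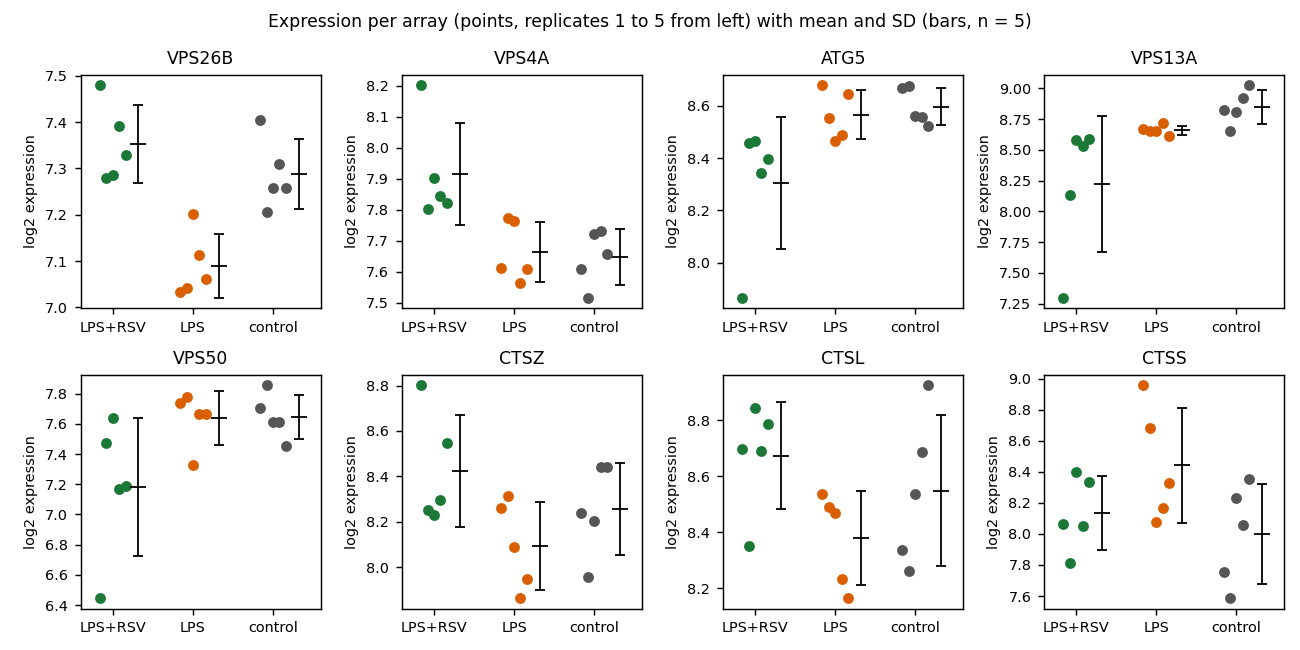
Log2 expression per array of 8 genes in LPS+RSV, LPS and control cells (points, replicates 1 to 5 from left, with the mean and SD of 5 arrays as bars). VPS26B separates LPS+RSV from LPS, while replicate 1 is the lowest LPS+RSV array of ATG5, VPS13A and VPS50, at 7.87, 7.30 and 6.45.

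VPS13 proteins are long bridges that carry lipid between membranes. VPS13A measured 7.30, 8.13, 8.58, 8.53 and 8.59 in LPS+RSV arrays and 8.67, 8.65, 8.65, 8.71 and 8.61 in LPS arrays. All LPS+RSV arrays lay below all LPS arrays, 3 of them by a narrow margin and replicate 1 by more than 1 log2 unit. The log2 change was -0.43 ± 0.19 (SE; limma's adjusted p = 0.237), and -0.20 without that array. VPS13C was -0.52 with all arrays and -0.28 without it, and VPS50, the subunit that makes the EARP tether, -0.45 and -0.27. None of these 3 passed in either setting. Without replicate 1 the counts at an unadjusted p under 0.05 were 6 higher and 6 lower. VPS33A, a fusion regulator of the HOPS and CORVET tethers, was 0.19 ± 0.07 higher, and VPS33B, its relative in the CHEVI complex, 0.22 ± 0.10 higher (SE; limma's adjusted p = 0.178 and 0.247).

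**Figure D3:**
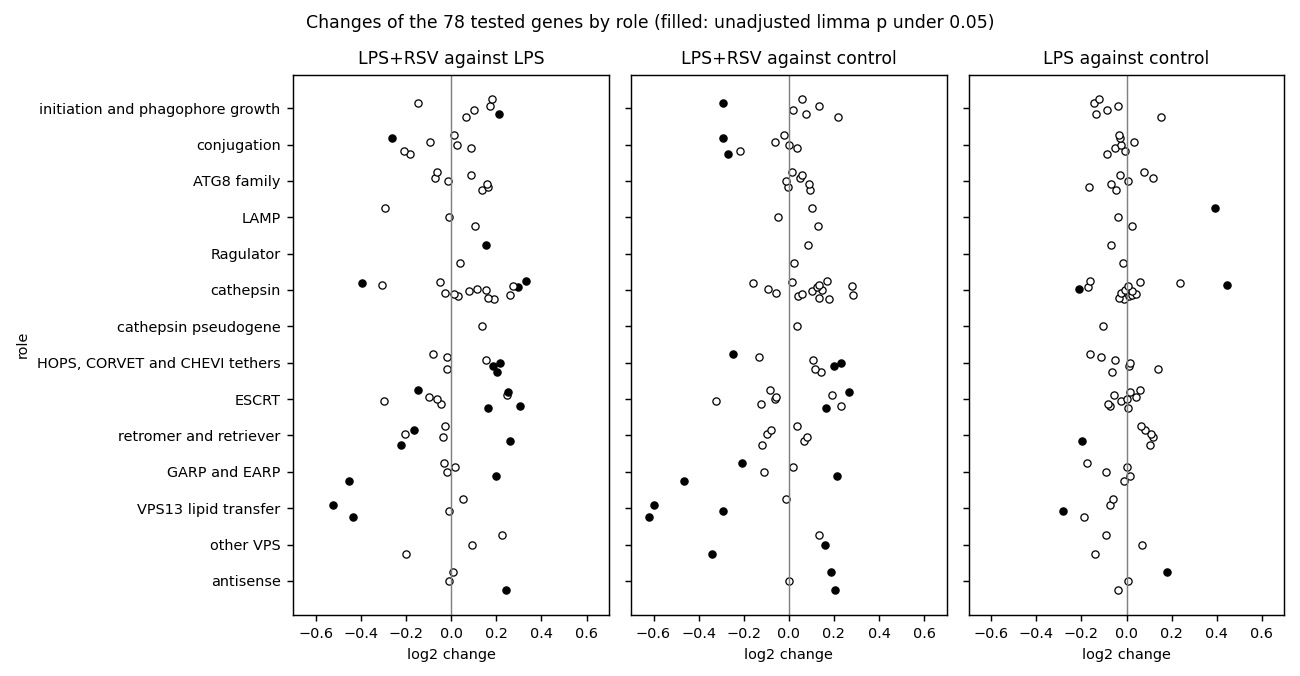
Log2 change of the 78 tested genes by role in LPS+RSV against LPS, LPS+RSV against control and LPS against control, filled where the unadjusted limma p was under 0.05. The VPS13 genes reach -0.62 in LPS+RSV against control, and no point passed after adjustment.

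In LPS+RSV against control, no member passed the test either. VPS13A, VPS13B, VPS13C, ATG5 and ATG2B were lower, and VPS4A and VPS33A were higher. The median over the 4 VPS13 genes was -0.44, and -0.26 without LPS+RSV replicate 1. There 47 of the 78 were higher, against 55.8% of all genes, and 31 lower, and the median was 0.04, against 0.02 over all genes. By limma 0 were called, against 0% of all 11804 genes, with a lowest adjusted p of 0.464. At an unadjusted p under 0.05, 8 were higher, against 4.09% of all genes, and 10 lower, against 6.4%. Without LPS+RSV replicate 1 those counts were 3 and 7.

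VPS13A measured 7.30, 8.13, 8.58, 8.53 and 8.59 in LPS+RSV arrays against 8.82, 8.66, 8.81, 8.92 and 9.03 in control arrays. The groups did not overlap, and the log2 change of -0.62 ± 0.19 (SE; limma's adjusted p = 0.464) was -0.39 without LPS+RSV replicate 1. The change of VPS13C was -0.60, and -0.35 without that array, and that of VPS13B was -0.29, and -0.17 without it. VPS13D, a further member of the family, averaged nearly the same in both groups, with a change of -0.01.

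ATG2B, which passes lipid into the growing phagophore, had the lowest p of the comparison. It measured 7.83, 8.25, 8.24, 8.07 and 8.15 in LPS+RSV arrays and 8.49, 8.43, 8.45, 8.25 and 8.39 in control arrays. The groups touched at 8.25, and the log2 change was -0.29 ± 0.08 (SE), at an unadjusted limma p of 0.0025. ATG5, at 8.31 ± 0.25 in LPS+RSV cells and 8.60 ± 0.07 in control cells (SD, n = 5 each), did not overlap between the groups, and its change was -0.29, or -0.18 without LPS+RSV replicate 1. ATG10, the E2-like enzyme that couples ATG12 to ATG5, differed by -0.27. VPS50 differed by -0.47, and -0.28 without that array, and VPS8, a subunit particular to CORVET, by -0.25, and -0.15 without it.

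VPS4A averaged 7.91 ± 0.16 in LPS+RSV cells and 7.65 ± 0.09 in control cells (SD, n = 5 each), without overlap, a change of 0.27 ± 0.08 (SE; limma's adjusted p = 0.464). VPS33B measured 7.12, 6.98, 6.98, 6.93 and 7.06 in LPS+RSV arrays and 6.87, 6.83, 6.85, 6.62 and 6.76 in control arrays, also without overlap, a change of 0.23 ± 0.10 (SE). Thus 2 members were higher without overlap, against 0.627% of all genes, and 2 lower, against 1.09%; in LPS+RSV against LPS the counts were 2 higher, against 1.41%, and 2 lower, against 1.39%. Counts of 2 in 78 are too few to set apart from these shares. VPS51, shared by GARP and EARP, was 0.21 higher, and 0.13 without LPS+RSV replicate 1, and the chromatin subunit VPS72 was 0.16 higher, and 0.11 without it. Of the cathepsins 12 of 15 were higher with a median of 0.12, which was 11 of 15 and 0.07 without that array, and none had an unadjusted p under 0.05.

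In LPS against control, differences were smaller and again none passed. VPS26B and VPS13B were lower and cathepsin S was higher in LPS cells, and the ATG8 family and most cathepsins were close to level. Here 33 of the 78 were higher, against 52.7% of all genes, and 45 lower, and the median was -0.02, against 0.01 over all genes. By limma 0 were called, against 0.0254% of all genes, with a lowest adjusted p of 0.359. At an unadjusted p under 0.05, 3 were higher, against 4.62%, and 3 lower, against 3.26%, which is near the background.

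Of the members whose groups did not overlap, 0 were higher, against 1.08% of all genes, and 3 were lower, against 1.13%. VPS26B was 7.09 ± 0.07 in LPS cells and 7.29 ± 0.08 in control cells (SD, n = 5 each), a change of -0.20 ± 0.06 (SE; limma's adjusted p = 0.359). VPS13B was 8.26, 8.17, 8.06, 8.22 and 8.21 in LPS arrays and 8.60, 8.61, 8.48, 8.28 and 8.36 in control arrays, a change of -0.28 (limma's adjusted p = 0.558). VPS54, the subunit that makes the GARP tether, was 8.49 ± 0.04 and 8.67 ± 0.09 in the same order, a change of -0.18.

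Cathepsin S, an endopeptidase best known for trimming the MHC class II chaperone, measured 8.96, 8.68, 8.08, 8.16 and 8.33 in LPS arrays and 7.76, 7.59, 8.23, 8.06 and 8.36 in control arrays. LPS replicates 1 and 2 stood above all controls. Control replicates 1, 2 and 4 stood below all LPS arrays, replicate 4 narrowly, and the other arrays overlapped. The log2 change was 0.44 ± 0.18 (SE, limma's adjusted p = 0.564), or 0.65 ± 0.16 with the cell cycle score as a covariate. In LPS+RSV arrays CTSS lay between 7.81 and 8.40. LAMP3, a LAMP protein of activated dendritic and some epithelial cells, was 0.39 ± 0.18 higher, or 0.12 ± 0.13 with the cell cycle score as a covariate, and CTSK, a collagen-degrading cathepsin, differed by -0.21 ± 0.10 (SE; limma's adjusted p = 0.631 and 0.623). LAMP1 differed by 0.02, LAMP2 by -0.04, GABARAP by -0.05, CTSA by -0.01 and CTSD by 0.02. The SE ran from 0.07 for LAMP2 to 0.21 for CTSD.

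The members that were lower in LPS+RSV against control at an unadjusted limma p under 0.05 were long genes, as were most genes lower by that measure on the whole array. RefSeq gene lengths were used to divide all tested genes into 3 classes of equal size at 11.3 and 42.4 kb, which put 22 members in the shortest, 32 in the middle and 24 in the longest class. All 10 members that were lower in LPS+RSV against control at an unadjusted p under 0.05 were in the longest class, beside 70.0% of the 756 genes lower by that measure on the whole array. Of the 8 higher members 0 were, beside 15.7% of the 483 higher genes. Set against LPS, 5 of the 8 lower members were in the longest class, beside 56.4% of all lower genes, and CTSV, VPS35 and VPS4B were not. In LPS+RSV against control, the median change of the members of the longest class was -0.13 and that of the shortest class 0.09. Over all genes these medians were -0.04 and 0.06. Across genes, which are not independent replicates, Spearman's rho between length and change against control was -0.49 over the 78 members and -0.30 over all 11804 genes.

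This ordering was a feature of the whole array as well as of the members. Set against LPS, rho was -0.42 over the members and -0.24 over all genes, and in LPS against control -0.19 and -0.02. LPS+RSV replicate 1 was the lowest array of its group for 16 of the 24 members of the longest class. Without LPS+RSV replicate 1, rho was -0.46 over the members and -0.25 over all genes in LPS+RSV against control. The median of the members was then -0.08 in the longest class and 0.05 in the shortest, beside -0.03 and 0.03 over all genes. In LPS+RSV against LPS, rho without that array was -0.32 over the members and -0.17 over all genes. Set against LPS, the median of the members of the longest class was -0.03 with the array and 0.0015 without it. The part of RNA quality or of this array's labelling in these values was not tested.

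**Figure D4:**
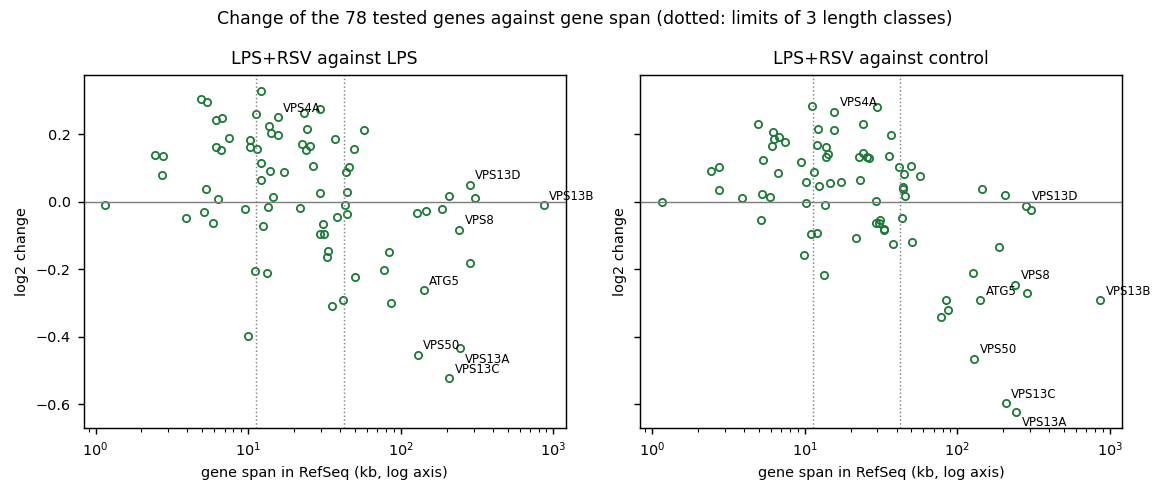
Log2 change of the 78 tested genes (vertical axis) against their RefSeq length in kb (horizontal log axis) in LPS+RSV against LPS and in LPS+RSV against control, with dotted lines at 11.3 and 42.4 kb. VPS13A, VPS13C and VPS50 lie lowest at the right of both panels, while VPS13D, of similar length to VPS13A, lies near 0.

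Wide differences between arrays lay inside each group. A cell cycle score, the mean deviation of 39 proliferation genes of a list of 43, was -0.49, 0.44, -0.16, -0.38 and -0.88 in LPS+RSV replicates 1 to 5, 0.17, 0.12, -0.03, 0.87 and 1.01 in LPS replicates 1 to 5, and 0.45, 0.43, -0.19, -0.37 and -0.99 in control replicates 1 to 5. CTSA, a serine carboxypeptidase that also protects other lysosomal enzymes, measured 11.58, 10.72, 11.37, 11.38 and 11.59 in LPS+RSV, 11.29, 11.29, 11.36, 10.94 and 10.82 in LPS, and 10.69, 10.67, 11.33, 11.36 and 11.71 in control arrays. In each group the arrays with the highest score had the lowest CTSA. The score also differed between groups, as all LPS+RSV arrays except replicate 2 scored below every LPS array. After centring each group on its mean, Pearson's r between CTSA and the score over the 15 arrays was -0.96 and Spearman's rho -0.91, with a permutation p of 1e-05 (2-sided, within groups, the smallest these permutations can give) and 3e-05. Adjusted over the 11804 genes examined they were 0.000762 and 0.00202.

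This relation was looked for after the data were seen, and score and members come from the same arrays. With an adjusted permutation p under 0.05, 17 of 78 members had r below 0, against 8.89% of all genes, and 2 had r above 0, against 12.8%. The 17 included 7 of the 15 cathepsins, among them CTSD (r = -0.93), CTSL (-0.92), CTSB (-0.91) and CTSH (-0.91), together with LAMP1 (-0.92), ATG2A (-0.94) and ATG9A (-0.90), a lipid scramblase of autophagy vesicles. Their rho values were -0.86, -0.80, -0.81, -0.88, -0.88, -0.89 and -0.87, and their adjusted permutation p-values of r lay between 0.00137 for ATG2A and 0.00417 for CTSL. VPS39 of HOPS, VPS11, ATG14, GABARAPL2, VPS28, VPS25, VPS9D1, CTSO and CTSZ completed the 17. CTSV (r = 0.83, rho = 0.79, adjusted permutation p of r = 0.00644) and LAMP3 (r = 0.79, rho = 0.75, 0.0106) went the other way.

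Leaving out LPS+RSV replicate 2 and control replicate 5, whose scores lie farthest from the median of the centred scores, r was -0.94 for CTSA, -0.91 for CTSD, -0.88 for LAMP1 and 0.81 for CTSV. Without LPS+RSV replicate 1 it was -0.96 for CTSA, -0.95 for CTSD and -0.96 for LAMP1. The 5 arrays of highest score, from 0.43 upward, also form a cluster of low CTSA, CTSD and LAMP1. Among the other 10 arrays, whose scores reach 0.17, r was -0.93 for CTSA, -0.60 for CTSD, -0.64 for LAMP1 and -0.35 for VPS11, and it was below 0 for all 17 members, between -0.93 and -0.23. The relation of CTSA thus held inside the larger cluster, while that of several others was weaker there.

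**Figure D5:**
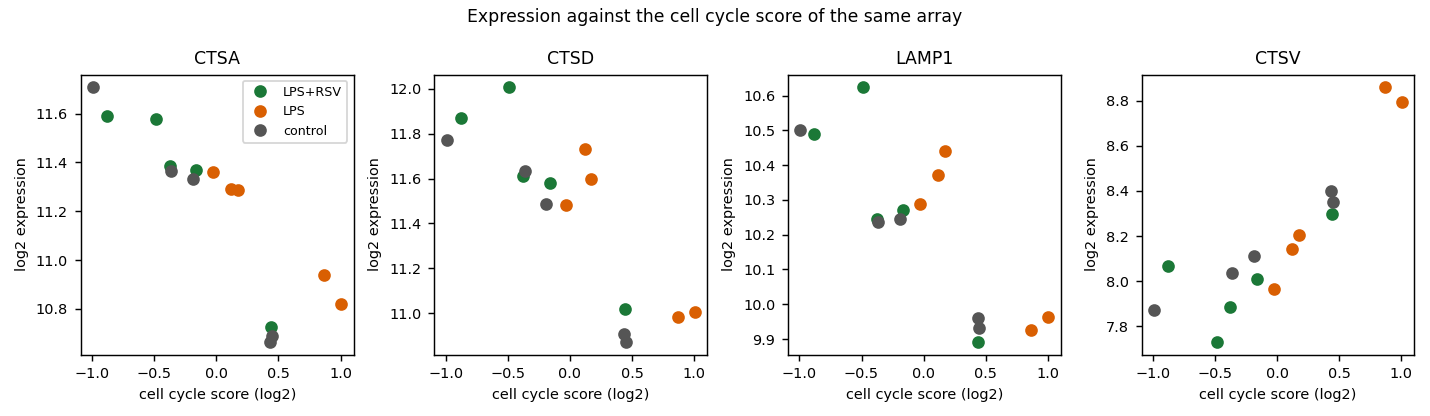
Log2 expression of CTSA, CTSD, LAMP1 and CTSV (vertical axes) against the cell cycle score of the same array (horizontal axes, log2 units), with 1 point per array in LPS+RSV, LPS and control colours. CTSA is lowest in the 5 arrays with a score of 0.43 or more, which come from all 3 groups, and CTSV is highest in LPS replicates 4 and 5.

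Of the 17, 14 had a matched promoter. CACGTG stood in 5 of these 14 (35.7%), the genes whose windows are printed above, and in 6 of the other 45 matched members (13.3%). TCACGTGA stood in 3 of 14 (21.4%) and in 1 of 45 (2.22%), and the still longer palindrome in 0 of 14 and 0 of 45. These shares are descriptions of small sets, without a test.

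With the score as a covariate the comparisons read differently. LPS against control then had 10 members higher, against 8.3% of all genes, and 5 lower, against 7.5%, at an unadjusted limma p under 0.05, with a median change of 0.03. CTSA was 0.36 ± 0.08, CTSS 0.65 ± 0.16, CTSD 0.40 ± 0.10 and LAMP1 0.27 ± 0.08 higher (SE, limma's adjusted p = 0.0560, 0.0692, 0.0750 and 0.119). MAP1LC3B was 0.23 ± 0.10 higher (SE, limma's adjusted p = 0.276). LPS+RSV against LPS had 4 higher, against 5.79% of all genes, and 6 lower, against 6.01%, with a median of -0.02, and there CTSA differed by -0.29 ± 0.09, LAMP1 by -0.21 ± 0.08 and CTSS by -0.58 ± 0.17 (SE; limma's adjusted p = 0.181, 0.339 and 0.177). No member was called with the covariate, against 0.102% of all genes in LPS+RSV against LPS, and against 0.568% in LPS against control. Of the changes given above for LPS+RSV against LPS, CTSZ was then 0.12, CTSL 0.03, VPS28 0.09, VPS25 0.05, ATG13 0.12 and LAMTOR5 0.08, and VPS13C was -0.28, VPS50 -0.27 and VPS35 -0.09, all more than 1.5 times smaller. The directions of CTSA, CTSD and LAMP1 in LPS+RSV against LPS were thus opposite with and without it. In LPS against control, CTSA, CTSD and LAMP1 differed by -0.01, 0.02 and 0.02 without the covariate. The score itself differed between LPS+RSV and LPS arrays and also between LPS and control arrays. LPS replicates 4 and 5 scored above every control array, and control replicates 3 to 5 below every LPS array. In both comparisons the covariate may therefore remove or add part of a treatment difference. Which of these holds was not tested.

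Among other genes of the pathway 0 were called by limma in any of 9 lists in any comparison. For LPS+RSV against LPS the mTORC1 and TFEB list had 9 higher (36.0%, against 8.08% of all genes) and 2 lower (8.0%, against 10.5%) of 25 at an unadjusted p under 0.05. That list mixes parts of mTORC1 with its inhibitors, so a higher count has no single direction for the pathway. Its counts without LPS+RSV replicate 1 or with the cell cycle score as a covariate are not given here. Lysosomal hydrolases had 4 and 1 of 19, lysosomal membrane proteins 3 and 1 of 15, and ESCRT and retromer partners 3 and 5 of 28. Autophagy initiation genes had 0 and 1 of 12, autophagy receptors 0 and 1 of 12, fusion and positioning genes 0 and 1 of 8, mannose 6-phosphate sorting genes 0 and 0 of 3, and cysteine protease inhibitors 0 and 0 of 6. Of the 19 hydrolases, 17 were higher at any size in LPS+RSV against control, beside 55.8% of all genes, with a median of 0.11, and none had an unadjusted p under 0.05.

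Single genes of these lists came nearer to the threshold than most members. SESN3, a stress-induced inhibitor of mTORC1, averaged 8.86 ± 0.18 in LPS cells and 9.32 ± 0.12 in control cells (SD, n = 5 each), without overlap, a change of -0.46 ± 0.10 (SE; limma's adjusted p = 0.210). It was 0.32 ± 0.10 higher in LPS+RSV cells than in LPS cells, a comparison that shares the LPS arrays. SQSTM1, the autophagy receptor p62, averaged 7.67 ± 0.13 in LPS cells and 7.44 ± 0.06 in control cells (SD, n = 5 each), without overlap, a change of 0.23 ± 0.07 (SE; limma's adjusted p = 0.356). GALC, a galactolipid hydrolase, averaged 7.95 ± 0.09 in LPS+RSV cells and 7.72 ± 0.07 in LPS cells (SD, n = 5 each), a change of 0.23, and NPRL3 of the GATOR1 complex differed by 0.28 (limma's adjusted p = 0.127 for both). Others were lower in LPS+RSV against LPS, with overlapping groups. CHMP2B differed by -0.41 ± 0.12, TAX1BP1 by -0.40 ± 0.12 and OSTM1 by -0.41 ± 0.13 (SE, limma's adjusted p = 0.129, 0.150 and 0.153).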

How the data were processed

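Expression of 15 Caco-2 samples was measured on Affymetrix whole-transcript arrays. The authors deposited 1 log2 value for each array and row, summarised by RMA per the submitters' processing notes (version not given in the sources used here). Symbols were read from the platform annotation, some of them old, for 16098 of 53617 rows; 0 rows carried several symbols. Coordinates are those of RefSeq promoters alone, since the array's genome build is not given in the sources used here.

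Each symbol was represented by its brightest row. Genes above the 40th percentile of an array (5.03 to 5.09) in at least 5 of 15 arrays were tested. limma 3.58.1 in R 4.3.3 (lmFit, eBayes) fitted 3 group means to all arrays, with Benjamini-Hochberg adjustment over 11804 genes and calls at an adjusted p under 0.05. The number of arrays limits the precision. The cell cycle relation used 100000 permutations within groups. Members and gene lists were chosen with earlier results of these data known. Named genes were every called member, the 8 of lowest p in each direction per comparison, 24 members in any case, and the 2 of lowest p of each of 9 related lists, from which a selection is given; VPS13D, LAMTOR5 and the genes named for the cell cycle relation were named after their values were seen. Alternatives (25 fits) covered the filter, scaling, rows per gene, moderation, array weights, the groups fitted, the replicate number, the score and each array left out. Tested on simulated data for LPS+RSV against LPS (11804 genes), the fit recovered 11.1% of simulated differences of 0.25 on the log2 scale, 67.3% at 0.5 and 98.4% at 1, with 11 false calls.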

Additional observations from a re-analysis of the deposited data

Results flagged for a closer look

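Among 135 sets of 5 arrays (45 named members in 3 groups), 13 held an array far from the other 4 by Dixon's test, where chance flags about 1 in 20 sets. LPS+RSV replicate 1 was that array in 6: ATG5 at 7.87 (others 8.34 to 8.46), VPS13B at 7.68 (8.26 to 8.36), VPS54 at 8.03 (8.53 to 8.64) and VPS8 at 7.04 (7.47 to 7.54) lay below, and VPS18 at 8.23 (7.56 to 7.66) and VPS4A at 8.20 (7.80 to 7.90) above the other LPS+RSV arrays. CTSA was low in LPS+RSV replicate 2, at 10.72 (11.37 to 11.59), an array of high cell cycle score. In LPS cells GABARAP was low in replicate 4, at 10.37 (10.63 to 10.72), and replicate 3 was low for VPS13C, at 8.76 (9.02 to 9.10), and VPS50, at 7.33 (7.67 to 7.78). In control cells MAP1LC3B was low in replicate 2, at 5.46 (5.85 to 5.89), and replicate 1 was low for VPS18, at 7.50 (7.63 to 7.67), and VPS51, at 6.66 (6.88 to 6.95).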

How the results depend on the processing

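No member was called in any comparison in any of the 25 alternative fits. Of 2363 values of named members under the alternatives 78 had the opposite sign, all of uncalled and mostly near-zero changes; the cause was not tested.

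With the cell cycle score as a covariate, 10 members were higher (3 without it) and 5 lower (3) at an unadjusted p under 0.05 in LPS against control, with a median of 0.028 (-0.023). For LPS+RSV against LPS 4 were higher (13), with a median of -0.025 (0.022). In that fit of LPS against control CTSV was -0.020, GABARAP 0.027, GABARAPL2 0.025, ATG16L1 0.041, CTSA 0.36, CTSC -0.044, CTSL 0.038 and CTSZ 0.0019, and in that of LPS+RSV against LPS ATG16L1 was -0.030, LAMP1 -0.21, LAMP2 0.0095, CTSA -0.29 and CTSD -0.23.

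Array weights gave 5 lower in LPS against control, 5 lower in LPS+RSV against LPS, and 4 higher and 5 lower in LPS+RSV against control, with MAP1LC3A -0.026, LAMP1 -0.042 and CTSD -0.11 in the first, LAMP2 0.042 in the second and ATG7 0.031 in the third. Fitting only the 2 groups compared, with fewer arrays, gave 7 lower in LPS against control and 8 higher in LPS+RSV against LPS. Quantile normalization repeated gave 5 lower and a median of 0.063 in LPS+RSV against LPS, where LAMP2 was 0.072; in LPS against control MAP1LC3A was -0.0087, LAMP1 -0.0096, CTSC -0.00075 and CTSD -0.017, and in LPS+RSV against control GABARAPL1 was 0.021 and LAMP2 0.014. With arrays centred on their medians MAP1LC3A was -0.0046 in LPS against control.

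Leaving out each array in turn, the count at an unadjusted p under 0.05 ran from 0 (without LPS replicate 1 or 2) to 3 higher and from 1 (LPS replicate 3) to 6 (LPS+RSV replicate 1) lower in LPS against control. For LPS+RSV against LPS it ran from 5 (LPS replicate 4) to 21 (LPS+RSV replicate 2) higher and from 5 (LPS replicate 1, 2 or 4) to 10 lower, and in LPS+RSV against control from 3 (LPS+RSV replicate 1) to 11 (LPS+RSV replicate 2) higher and from 7 to 12 lower. Over these fits the change in LPS against control ran from -0.042 to 0.075 for MAP1LC3A, -0.076 to 0.013 for GABARAP, -0.078 to 0.012 for ATG7, -0.051 to 0.034 for ATG12, -0.038 to 0.10 for LAMP1, -0.13 to 0.13 for CTSA, -0.040 to 0.075 for CTSC and -0.091 to 0.13 for CTSD. Between LPS+RSV and LPS it ran from -0.085 to 0.032 for MAP1LC3A, -0.021 to 0.053 for ATG7, -0.042 to 0.033 for LAMP2 and -0.033 to 0.082 for CTSC. Between LPS+RSV and control it ran from -0.043 to 0.030 for MAP1LC3A, -0.034 to 0.077 for MAP1LC3B, -0.044 to 0.057 for GABARAPL1, -0.068 to 0.023 for ATG7 and -0.0088 to 0.10 for ATG16L1. The median change of the members of the longest length class ran from -0.16 to -0.078 in LPS+RSV against control and from -0.053 to 0.0015 in LPS+RSV against LPS, without LPS+RSV replicate 1 in both upper values.

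The labels give no meaning to the replicate numbers, and not every same-numbered pair correlated above 0.1. In LPS+RSV against control the pairs lay between -0.44 and 0.71 and 3 of 5 arrays correlated best with their own number, while the other comparisons lay between -0.54 and 0.12, with 0 of 5 in each. With the replicate number as a block, LPS+RSV against LPS had 10 members higher and 6 lower, LPS+RSV against control 5 higher and 9 lower, and LPS against control 2 higher and 2 lower. Signal over background was not part of the deposited values, so dim members such as MAP1LC3A, at 5.56, have unknown sensitivity.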
